A study of Homo sapiens with 16 samples.

Results

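Untreated NCI-H1944 cells carrying a guide against STING were compared with untreated NCI-H1944 cells carrying a guide against MAVS. NCI-H1944 is an established human lung adenocarcinoma line. The comparison took the columns labelled STINGsg with DMSO and those labelled MAVSsg with DMSO, which are 4 of the 16 libraries of the series, 2 on each side. The series description asks which of the expression changes that follow a pulse of an MPS1 inhibitor need STING and/or MAVS, and the libraries used here give the state of these lines without the inhibitor. The libraries measured poly(A) RNA by sequencing, as raw read counts per gene.

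The groups were defined by guide and treatment, with 2 libraries each. The STING-labelled group carried the STING guide (STINGsg) and received DMSO, the solvent, for 48 h, which was then washed out 24 h before harvest. The MAVS-labelled group carried the MAVS guide (MAVSsg) and received DMSO on the same schedule. Values of another line labelled DKO, a knockout of both genes, and of SCR, the control guide labelled wild type, are given beside them under DMSO. Libraries of the same STING-labelled and MAVS-labelled lines after the MPS1 inhibitor BAY-1217389 (MPS1i, 100 nM on the same schedule) share no library with the DMSO comparison. All groups came from 1 cell line and the same medium. The labels do not say whether a guide line is a clone or a pool, or whether the 2 replicates are separate cultures, so a p-value measures the spread between these libraries, which may be technical.

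As background, cells sense misplaced nucleic acid through separate relays. The enzyme cGAS binds DNA in the cytosol and makes a cyclic dinucleotide that activates STING on the endoplasmic reticulum, whereas the RNA helicases RIG-I and MDA5 activate MAVS on mitochondria. Both relays engage the kinase TBK1 and the transcription factors IRF3 and NF-kB. Secreted interferon then acts through a complex of transcription factors that includes STAT2 and IRF9 and binds a DNA sequence called the interferon-stimulated response element and switches on interferon-stimulated genes. Some tumour lines hold this programme partly on without any infection, and lung adenocarcinoma lines differ in how much STING they keep.

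The targeted genes were examined first. STING1 (ENSG00000184584, chromosome 5, 139475533 to 139482935, GRCh38) stood at 3.78 and 3.7 CPM (counts scaled to library size) in STING-labelled cells, against 10.0 and 10.8 CPM in MAVS-labelled cells. DKO cells had 4.9 and 4.83 CPM and SCR cells 8.25 and 8.3 CPM. The 2 STING-labelled libraries lay below all SCR and MAVS-labelled libraries, and the transcript was 2.77-fold lower than in MAVS-labelled cells (log2 fold change -1.47 ± 0.12, adjusted p = 3.3e-09). It was not absent. MAVS (ENSG00000088888, chromosome 20, 3846799 to 3876123) stood at 209 and 204 CPM in STING-labelled cells, 195 and 196 CPM in MAVS-labelled cells, 222 and 208 CPM in DKO cells and 189 and 183 CPM in SCR cells. The MAVS transcript did not pass the test between the groups (0.08 ± 0.05, adjusted p = 0.38), and all 4 libraries stood above both SCR libraries. Loss of a protein need not change the amount of its RNA, so this transcript does not check the MAVS label, and the libraries are called MAVS-labelled throughout. Here and below the number after ± is the standard error of a log2 fold change, fold changes are STING-labelled over MAVS-labelled unless another pair is named, and adjusted p-values come from edgeR (quasi-likelihood F-test, adjusted after Benjamini and Hochberg over 17950 genes).

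Depth ran from 20247175 to 24036388 counts in STING-labelled libraries and from 19893784 to 27610499 in MAVS-labelled libraries, within 19893784 to 49769938 over all 16. Replicates of a group differed by more than counting noise in each group. General epithelial markers were present in both groups, with a summed level of 2579 to 2588 CPM in the STING-labelled libraries, against 2568 to 2687 CPM in the MAVS-labelled ones. The 8 lung epithelium markers summed to 4.0 to 4.12 CPM in STING-labelled and 4.31 to 4.97 CPM in MAVS-labelled libraries, most of it from ABCA3, and 4 of them (NKX2-1, SFTPB, SFTPC and SCGB1A1) had 0 counts in all 4 libraries. Immune markers summed to 0.208 to 0.593 CPM in STING-labelled and 0.833 to 0.855 CPM in MAVS-labelled libraries. Stromal markers summed to 24.2 to 25.3 CPM in STING-labelled and 26.6 to 29.1 CPM in MAVS-labelled libraries, with COL1A2 at 0 in all 4.

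Promoters of some of the genes that fell most are shown first, since they hold the core letters of the interferon-stimulated response element. Of the 12 called genes with the largest falls at a mean of at least 1 CPM, 8 had a promoter in the RefSeq table (GRCh38.p14, 250 bases before to 50 after the start site), and 4 of these held the core of that element, written here as GAAA, any 2 bases and GAAAC, on either strand. The 4 are HERC5 (chr4:88456869-88457168, plus strand), IFIT1 (chr10:89392373-89392672, plus strand), IFI27 (chr14:94110486-94110785, plus strand) and MX1 (chr21:41420308-41420607, plus strand). Each is written 5′ to 3′ with the matching letters in capitals. Capitals that begin with GTTTC are the same letters read on the other strand.
HERC5: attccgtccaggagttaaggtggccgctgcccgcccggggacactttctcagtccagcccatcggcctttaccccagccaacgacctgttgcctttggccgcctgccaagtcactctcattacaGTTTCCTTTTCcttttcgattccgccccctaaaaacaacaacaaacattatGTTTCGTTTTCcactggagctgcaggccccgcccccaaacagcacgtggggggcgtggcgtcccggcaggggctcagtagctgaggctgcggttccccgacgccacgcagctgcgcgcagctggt
IFIT1: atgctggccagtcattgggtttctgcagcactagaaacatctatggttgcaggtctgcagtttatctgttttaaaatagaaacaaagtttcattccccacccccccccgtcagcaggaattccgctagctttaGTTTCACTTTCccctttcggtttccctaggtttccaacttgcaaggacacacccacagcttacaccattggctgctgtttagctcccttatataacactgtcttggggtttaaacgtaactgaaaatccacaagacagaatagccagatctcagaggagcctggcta
IFI27: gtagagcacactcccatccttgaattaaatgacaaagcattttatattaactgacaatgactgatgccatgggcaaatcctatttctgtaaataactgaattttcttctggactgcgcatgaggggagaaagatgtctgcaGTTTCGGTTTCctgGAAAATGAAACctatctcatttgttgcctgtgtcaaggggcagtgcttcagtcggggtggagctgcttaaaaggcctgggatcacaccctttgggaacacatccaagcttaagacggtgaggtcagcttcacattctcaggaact
MX1: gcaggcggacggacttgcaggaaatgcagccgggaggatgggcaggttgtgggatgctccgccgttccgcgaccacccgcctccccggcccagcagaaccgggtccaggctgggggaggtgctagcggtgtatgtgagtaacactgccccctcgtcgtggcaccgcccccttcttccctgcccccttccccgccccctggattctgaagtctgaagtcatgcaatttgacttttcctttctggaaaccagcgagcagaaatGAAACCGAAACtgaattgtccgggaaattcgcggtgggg
HERC5 and IFI27 held 2 matches and IFIT1 and MX1 held 1. The match in MX1 began 11 bases after the start site, and the others lay before it. IFI44L, GBP4, XAF1 and RSAD2 had no match to these exact letters in this window.

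The same letters were more frequent in promoters of genes that were lower in STING-labelled cells than in those of genes that were higher. They stood in 32 of 296 promoters of genes called lower (10.8%, 95% Wilson interval 7.76 to 14.9), in 1 of 245 of genes called higher (0.408%, 0.0721 to 2.28) and in 108 of 12177 of all genes tested (0.887%). Among genes at least 2-fold lower the share was 20 of 63 (31.7%, 21.6 to 44.0), and in the list of interferon-stimulated genes 23 of 43 (53.5%). The kappa B site of NF-kB was searched on both strands as the exact letters GGGAC followed directly by TTTCC. It stood in 2 of 296 promoters of genes called lower (0.676%, 0.185 to 2.43) and in 0 of 245 of genes called higher (0.0 to 1.54). Of all promoters 23 of 12177 held it (0.189%). These matches are too few to compare the groups. A match describes letters in a window and was not tested as a binding site, and the intervals cover sampling of promoters only.

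Across all genes, 831 of 17950 differed between STING-labelled and MAVS-labelled cells under DMSO (4.63%), with 386 lower (2.15%) and 445 higher (2.48%) in STING-labelled cells. The median log2 fold change over all genes was -0.017. Of the called genes 206 differed at least 2-fold (1.15%), 87 lower (0.485%) and 119 higher (0.663%). The 2 directions held different kinds of genes. Of the 87 that were at least 2-fold lower, 86 were protein coding and 50 belonged to the lists for interferon-stimulated genes, interferon signalling, interferons and chemokines, DNA and RNA sensing or class I presentation. Of the 119 that were at least 2-fold higher, 24 were protein coding and 0 belonged to those lists. The number of calls rests on having both replicates: 458 genes were called without STING DMSO replicate 1, 394 without STING DMSO replicate 2, 422 without MAVS DMSO replicate 1 and 427 without MAVS DMSO replicate 2. Without STING DMSO replicate 2 or MAVS DMSO replicate 1, 133 and 134 genes were at least 2-fold different.

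Interferon-stimulated genes were lower in STING-labelled cells almost throughout. Of the 54 members of that list, 53 fell (98.1%, against 2.15% of all genes), 0 rose and RTP4 did not pass (-1.69). The median was -1.40, with values from -3.31 to -0.34. Of the 53, 40 fell at least 2-fold. DESeq2 called 52 lower and 0 higher, and at an unadjusted p under 0.05 edgeR had 54 lower and 0 higher. IFIT1, whose protein binds foreign RNA and blocks its translation, had 12.2 and 16.2 CPM in STING-labelled cells, against 132 and 111 CPM in MAVS-labelled cells. It was 8.65-fold lower (-3.11 ± 0.11, adjusted p = 8.1e-10), and the groups did not overlap. In bulk RNA, fewer cells with the transcript and less of it in each cell cannot be told apart.

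The antiviral effectors of the list showed the same separation. MX1, a GTPase that traps viral nucleocapsids, had 28.8 and 34.7 CPM in STING-labelled cells, against 239.6 and 225 CPM in MAVS-labelled cells (-2.88 ± 0.08, adjusted p = 8.4e-15). OAS2, which makes the signal that activates RNase L, had 22.9 and 25.2 CPM against 151 and 139 CPM (-2.59 ± 0.06, adjusted p = 4.7e-21). OASL, a related protein without that activity, had 4.31 and 4.23 CPM in STING-labelled cells, against 45.8 and 38.5 CPM in MAVS-labelled cells (-3.31 ± 0.13). HERC5, the ligase that attaches the ubiquitin-like ISG15 to other proteins, had 1.36 and 1.26 CPM against 12.3 and 12.8 CPM (-3.25 ± 0.13). In each of these genes the libraries of the 2 groups were apart by far more than their spread. ISG15 itself changed by -2.67, and its deconjugating enzyme USP18 by -1.84.

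IFI44L, an interferon-induced gene of poorly understood function, had 16.9 and 18.9 CPM in STING-labelled cells, against 137 and 135 CPM in MAVS-labelled cells (-2.93 ± 0.06, adjusted p = 4.7e-21). IFI27, a mitochondrial interferon-induced protein, had 5.71 and 5.79 CPM against 42.6 and 37.3 CPM (-2.80 ± 0.10). XAF1, which promotes cell death, had 2.34 and 2.53 CPM against 19.4 and 15.6 CPM (-2.86 ± 0.16). DDX60, a helicase linked to RNA sensing, had 33.1 and 36.6 CPM in STING-labelled cells, against 171 and 178 CPM in MAVS-labelled cells (-2.32 ± 0.07). None of these groups overlapped. RSAD2, which encodes the antiviral enzyme viperin, rested on less even libraries, with 0.821 and 1.41 CPM in STING-labelled cells and 11.1 and 3.86 CPM in MAVS-labelled cells (-2.86 ± 0.54, adjusted p = 0.022). Its call was lost without STING DMSO replicate 1 (-2.49) or STING DMSO replicate 2 (-3.25), and without MAVS DMSO replicate 1 it was -1.81. GBP4, a guanylate-binding protein, was low in all libraries, at 0.37 and 0.146 CPM against 2.49 and 1.42 CPM (-2.91 ± 0.35). RP11-326C3.17, a gene on chromosome 11 among the largest falls, had 0.37 and 0 CPM against 2.16 and 1.57 CPM (-3.23 ± 0.47). IFIT2 completed the 12 largest falls at 11.4 and 16.1 CPM against 107 and 84.8 CPM (-2.82 ± 0.13).

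**Figure D1:**
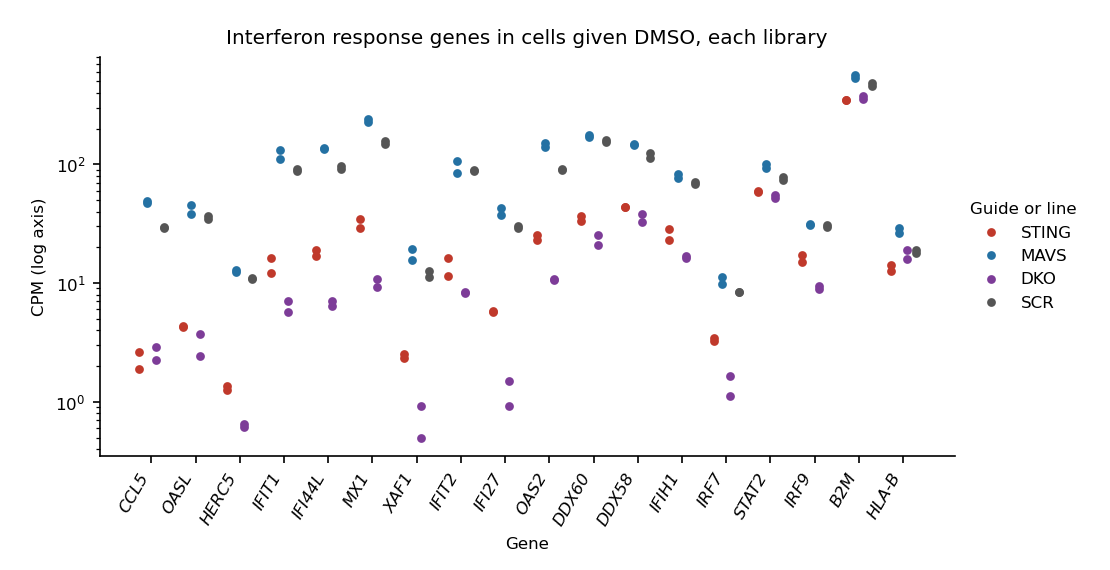
CPM (log axis) of 18 interferon response genes in each DMSO library, with 1 point per library and 2 libraries per line. STING-labelled points lie below MAVS-labelled points for every gene drawn, for IFIT1 at 12.2 and 16.2 against 132 and 111 CPM, and SCR points lie near or below the MAVS-labelled ones.

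The other lines place the 2 groups. STING-labelled cells had lower values than SCR for 46 of 54 interferon-stimulated genes and higher for 0 (median -1.05, where 5.47% of all genes were lower), and 10.2% of all genes differed in that comparison. MAVS-labelled cells had higher values than SCR for 33 of the 54 and lower for 0 (median 0.30, where 3.98% of all genes were higher), and 6.56% of all genes differed. These comparisons share libraries with each other and with the main one. Without a single library the calls against SCR numbered 897 (without STING DMSO replicate 1), 921 (STING DMSO replicate 2) and 1015 (SCR DMSO replicate 2) in place of 1826 for STING-labelled cells. For MAVS-labelled cells they numbered 339 (without MAVS DMSO replicate 1), 457 (SCR DMSO replicate 2), 730 (MAVS DMSO replicate 2) and 744 (SCR DMSO replicate 1) in place of 1177. For IFIT1 the CPM were 5.66 and 7.08 in DKO and 87.7 and 91.0 in SCR cells, and for MX1 9.33 and 10.8 in DKO and 156 and 149 in SCR cells. The summed level of the list was 2505 and 2613 CPM in STING-labelled, 5929 and 5723 CPM in MAVS-labelled, 2159.7 and 2161 CPM in DKO and 4824 and 4892 CPM in SCR libraries. Summed levels of the STING-labelled libraries thus lay above DKO and below SCR, and those of the MAVS-labelled libraries lay above all others.

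Among the sensors, several genes that interferon itself induces were lower, while CGAS, MAVS and TBK1 did not pass the test. In the RNA sensing arm 6 of 16 members fell (37.5%, against 2.15% of all genes) and 0 rose. DDX58, which encodes RIG-I, had 43.5 and 43.4 CPM in STING-labelled cells, against 148 and 146 CPM in MAVS-labelled cells (-1.76 ± 0.07, adjusted p = 1.2e-14). IFIH1, which encodes MDA5, had 23.0 and 28.6 CPM against 82.1 and 77.2 CPM (-1.63 ± 0.08). DHX58, TLR3, TRIM25, the ligase that assists RIG-I, and ZC3HAV1, the zinc-finger antiviral protein, changed by -1.45, -0.80, -0.63 and -0.48. Both RNA helicases that feed MAVS thus stood nearer to DKO than to SCR cells: in DKO cells DDX58 had 32.9 and 37.8 CPM and IFIH1 16.4 and 16.9 CPM.

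In the DNA sensing arm 3 of 16 members fell (18.8%, against 2.15% of all genes) and 0 rose. Beside STING1, SAMHD1, which degrades nucleotides, had 17.1 and 18.9 CPM in STING-labelled cells, against 42.7 and 45.0 CPM in MAVS-labelled cells (-1.28 ± 0.07). IFI16, a nuclear DNA-binding protein, had 131 and 136 CPM against 217 and 219 CPM (-0.71 ± 0.05). CGAS, the DNA sensor upstream of STING, had 30.4 and 34.5 CPM in STING-labelled cells and 32.7 and 31.5 CPM in MAVS-labelled cells (0.01 ± 0.09, adjusted p = 0.97), and the kinase gene TBK1 had 83.3 and 90.3 CPM and 82.6 and 86.4 CPM (0.04 ± 0.06, adjusted p = 0.81). The CGAS and TBK1 libraries of the 2 groups overlapped.

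Of 19 interferon signalling genes 4 fell (21.1%, against 2.15% of all genes) and 0 rose. Those described here form or extend the interferon-induced transcription complex. STAT2 had 59.4 and 58.4 CPM in STING-labelled cells, against 101 and 92.4 CPM in MAVS-labelled cells (-0.72 ± 0.05), and IRF9, its DNA-binding partner, 17.1 and 15 CPM against 31.5 and 31.1 CPM (-0.96 ± 0.08). IRF7, which amplifies interferon production, had 3.24 and 3.45 CPM in STING-labelled cells, against 11.2 and 9.74 CPM in MAVS-labelled cells (-1.65 ± 0.13). The receptor genes IFNAR1, IFNAR2, IFNLR1 and IL10RB, the kinase genes JAK1 and TYK2, and IRF3 (-0.11 ± 0.11, adjusted p = 0.66) did not pass. All counts of members in the RNA sensing, DNA sensing and signalling lists were the same without any 1 of the 4 libraries.

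The interferon genes were at the limit of detection. IFNB1 had 0 CPM in both STING-labelled libraries and 0.0361 and 0 CPM in the MAVS-labelled ones, and IFNL1 had the same 4 values. No difference was detectable at this depth, where a count of 0 allows up to 3 counts in a library. CCL5, a chemokine that attracts T cells, was the largest fall among called genes averaging 1 CPM or more. It had 1.89 and 2.63 CPM in STING-labelled cells, against 48.9 and 47.2 CPM in MAVS-labelled cells, a 21.5-fold lower level (-4.43 ± 0.10, adjusted p = 7.2e-21). DKO cells had 2.87 and 2.25 CPM and SCR cells 28.8 and 29.9 CPM, so the STING-labelled libraries stood with DKO and the MAVS-labelled libraries above SCR. Of the 13 tested interferon and chemokine genes 3 fell (23.1%, against 2.15% of all genes), CCL5 and 2 others. The death ligand gene TNFSF10, which encodes TRAIL, had 4.44 and 3.89 CPM against 9.02 and 7.46 CPM (-0.99 ± 0.13, adjusted p = 1.1e-05). TNFSF13B, the B cell factor BAFF, changed by -1.46 ± 0.30 (adjusted p = 0.0029), and its call was lost without STING DMSO replicate 1 (-1.33) or MAVS DMSO replicate 1 (-1.33). CXCL10 was near 0 in all 4 libraries (adjusted p = 0.54), and CD274, which encodes PD-L1, did not pass (-0.45 ± 0.21, adjusted p = 0.26). Both were named after their values were seen.

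Genes of MHC class I presentation, which carries peptides to the cell surface, were modestly lower. Of 20 tested members 14 fell (70.0%, against 2.15% of all genes) and 0 rose (median -0.41, range -1.03 to 0.04). B2M, the invariant light chain, had 351 and 345 CPM in STING-labelled cells, against 563 and 534 CPM in MAVS-labelled cells (-0.66 ± 0.05, adjusted p = 4.8e-10). HLA-B, a heavy chain, had 14.3 and 12.7 CPM against 28.8 and 26.5 CPM (-1.03 ± 0.08, adjusted p = 2.3e-09), and HLA-E, a non-classical heavy chain, 48.5 and 45.2 CPM against 65 and 60.3 CPM (-0.42 ± 0.06). The groups did not overlap for these. The peptide transporter genes TAP1 and TAP2 changed by -0.52 and -0.50, and the immunoproteasome genes PSMB9 and PSMB8 by -0.78 and -0.54. PSMB10 (-0.32), named after its values were seen, ERAP2, CALR, PDIA3 and TAPBPL were among those that did not pass. The list counted 9 falls without MAVS DMSO replicate 1. HLA genes are polymorphic and alike in sequence, so reads may be split between them. STING-labelled and SCR cells stood close for HLA-E, at 48.5 and 45.2 against 48.8 and 45.5 CPM, and MAVS-labelled cells were higher than SCR by 0.41 ± 0.06 (adjusted p = 3e-05).

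MHC class II genes gave 0 calls lower (median -0.17). Of 11 tested members 1 was called higher (9.09%, against 2.48% of all genes), HLA-DMB, a peptide-loading chaperone. It had 3.9 and 4.87 CPM in STING-labelled cells and 2.63 and 2.49 CPM in MAVS-labelled cells (0.77 ± 0.19, adjusted p = 0.014). That call was lost without STING DMSO replicate 2 (0.61), MAVS DMSO replicate 1 (0.82) or MAVS DMSO replicate 2 (0.73). HLA-DRA, named after its values were seen, had 3.9 and 4.28 CPM in STING-labelled, 4.9 and 4.26 CPM in MAVS-labelled and 1.22 and 1.36 CPM in SCR cells. Against SCR, 6 class II members were higher in STING-labelled cells (median 1.14, with 4.70% of all genes higher). In MAVS-labelled cells 6 were higher than in SCR cells (median 1.10, with 3.98% of all genes higher).

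Inflammatory genes driven by NF-kB gave no call lower in untreated STING-labelled cells. Of 30 tested members edgeR called 0 lower and 3 higher (10.0%, against 2.48% of all genes), with a median of 0.03. At an unadjusted p under 0.05 edgeR had 2 lower, and DESeq2 called 1 lower. SOD2, a mitochondrial superoxide dismutase, had 884 and 864 CPM in STING-labelled cells, against 732 and 744 CPM in MAVS-labelled cells (0.24 ± 0.04, adjusted p = 0.00041). PTGS2, which encodes COX-2, had 506 and 509.9 CPM against 418 and 415 CPM (0.29 ± 0.05), and the chemokine gene CXCL5 changed by 0.20 ± 0.06 (adjusted p = 0.049), a call lost without any 1 of the 4 libraries (0.17 to 0.24). The cytokine gene IL6 stood at 13.8 and 14.4 CPM in STING-labelled cells and 14.8 and 15 CPM in MAVS-labelled cells, and CXCL8 at 11.9 and 13.2 CPM and 14.2 and 11.8 CPM. Neither passed (adjusted p = 0.67 and 0.75), and both were named after their values were seen. Of 22 AP-1 and immediate early genes 3 fell (13.6%, against 2.15% of all genes), EGR1, an early growth response factor (-1.02 ± 0.21), MYC (-0.23 ± 0.05) and JUNB (-0.29 ± 0.08). The count was 2 without STING DMSO replicate 1, 0 without STING DMSO replicate 2 and 1 without either MAVS DMSO replicate. EGR1 lost its call without STING DMSO replicate 2 (-0.64) or MAVS DMSO replicate 1 (-0.83), MYC without either STING DMSO replicate or MAVS DMSO replicate 2 (-0.23 to -0.20), and JUNB without any 1 of the 4 (-0.35 to -0.22). Counts of 0 or 1 member are near or below the share of all genes.

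Some amino acid genes controlled by ATF4, which respond to nutrient stress, were lower (26.7% of tested members, against 2.15% of all genes). Of 30 tested members 8 fell and 1 rose (median -0.11), and the falls numbered 4 without STING DMSO replicate 2 and 5 without either MAVS DMSO replicate. CBS, the first enzyme of transsulfuration, had 24.2 and 22.3 CPM in STING-labelled cells, against 34.2 and 34.2 CPM in MAVS-labelled cells (-0.56 ± 0.08, adjusted p = 2.9e-05). PHGDH and PSAT1, which make serine, had 55.5 and 52.5 against 75.1 and 74.1 CPM (-0.47 ± 0.07) and 509 and 507 against 596 and 651 CPM (-0.30 ± 0.05). WARS1, a tRNA synthetase gene that interferon also induces, had 261 and 271 CPM against 357 and 335 CPM (-0.38 ± 0.04). SLC7A11, the cystine transporter, rose by 0.21 ± 0.05 (adjusted p = 0.0059), a call lost without STING DMSO replicate 1 (0.21) or MAVS DMSO replicate 1 (0.20). ATF4 itself was at 0.00 on the log2 scale. Against SCR, 19 members were lower in STING-labelled cells and 11 in MAVS-labelled cells. Of all genes 5.47% and 2.57% were lower in these comparisons.

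Programmes of growth and metabolism gave few calls. Of 38 mitosis genes, 40 DNA replication genes and 27 oxidative phosphorylation genes, both edgeR and DESeq2 called 0, with medians of -0.08, -0.06 and -0.03. At an unadjusted p under 0.05 edgeR had 7 lower and 1 higher among the mitosis genes, 6 lower and 0 higher among the replication genes and 0 lower and 1 higher among the oxidative phosphorylation genes. The proliferation marker MKI67 had 769.5 and 784 CPM in STING-labelled cells and 694 and 756 CPM in MAVS-labelled cells (0.10 ± 0.05, adjusted p = 0.27), and TTK, which encodes MPS1, 54.7 and 55.3 CPM and 60.5 and 62.1 CPM (-0.16 ± 0.07, adjusted p = 0.27). Cytosolic ribosomal protein genes leaned lower together, with 29 of 30 below 0 (median -0.13, against -0.033 for all protein coding genes). At an unadjusted p under 0.05 edgeR had 14 of them lower and 0 higher, and 13.3% were called lower, against 2.15% of all genes. Of 30 cytosolic ribosomal protein genes 4 fell, among them RPL19 (-0.21 ± 0.05), and 0 of them fell without STING DMSO replicate 2 and 1 without MAVS DMSO replicate 2. Of 37 matrix, YAP and TGF-beta targets 6 fell (16.2%, against 2.15% of all genes). Among them were the urokinase receptor gene PLAUR (-0.35 ± 0.08) and the basement membrane collagen gene COL4A2 (-0.31 ± 0.06). The collagen gene COL12A1 rose (0.43 ± 0.07). That list counted 1 fall without MAVS DMSO replicate 1, 2 without STING DMSO replicate 2, 3 without STING DMSO replicate 1 and 4 without MAVS DMSO replicate 2. PLAUR lost its call without either STING DMSO replicate or MAVS DMSO replicate 1 (-0.36 to -0.29), COL4A2 without MAVS DMSO replicate 1 (-0.26), and RPL19 without STING DMSO replicate 2 (-0.17). Of 33 p53 targets 2 rose (6.06%, against 2.48% of all genes), led by ZMAT3, an RNA-binding repressor of proliferation (0.35 ± 0.05), and 1 rose without STING DMSO replicate 2 or either MAVS DMSO replicate. Of 29 NRF2 targets 3 rose (10.3%, against 2.48% of all genes), led by the aldo-keto reductase gene AKR1B10 at 497 and 495 CPM in STING-labelled cells, against 356 and 355 CPM in MAVS-labelled cells (0.48 ± 0.04, adjusted p = 3.6e-09). That count was 1 without STING DMSO replicate 1, and 1 member of either list is near the share of all genes. KLK10, a secreted protease of squamous epithelium, was the 1 member called in the keratin and squamous list, at 1.64 and 1.99 CPM against 4.65 and 4.67 CPM (-1.37 ± 0.19).

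**Figure D2:**
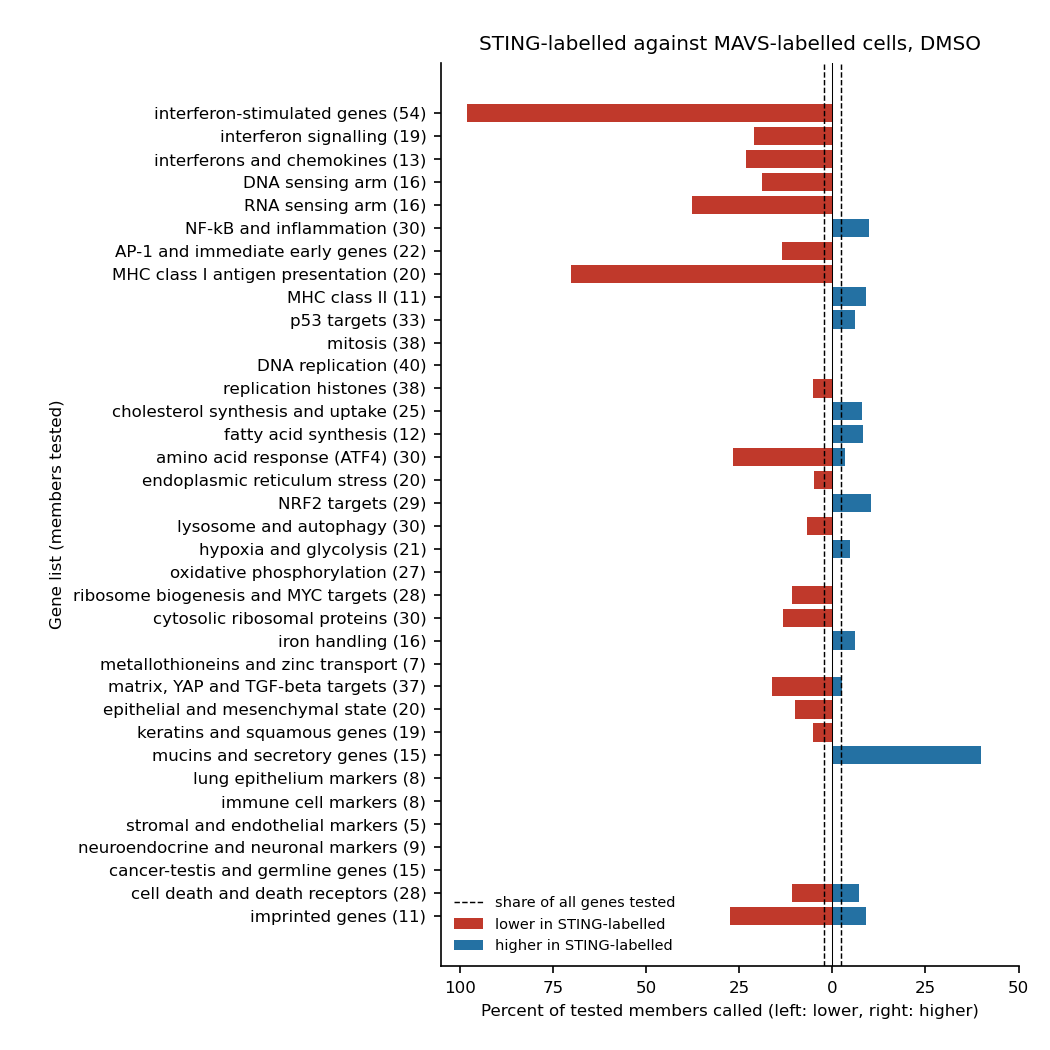
Percent of tested members of 36 gene lists called lower (left) or higher (right) in STING-labelled than in MAVS-labelled cells under DMSO, with the number tested in brackets and dashed lines at the share of all genes tested. The interferon-stimulated list reaches 98.1% lower and class I presentation 70.0% lower, and mucins reach 40.0% higher.

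Mucin and secretory genes were the list with the most members higher in STING-labelled cells. Of 15 tested members 6 rose and 0 fell (median 0.08), against 2.48% of all genes, and 5 rose without any 1 of the 4 libraries. MUC16, the transmembrane mucin that carries the CA125 antigen, had 185 and 187 CPM in STING-labelled cells, against 79.0 and 77.8 CPM in MAVS-labelled cells (1.24 ± 0.05, adjusted p = 3.5e-15). MUC5AC, a gel-forming airway mucin, had 23.7 and 25.3 CPM against 11.4 and 12.2 CPM (1.06 ± 0.09), and MUC5B, its neighbour on chromosome 11, 83.8 and 79.6 CPM against 44.7 and 39.6 CPM (0.95 ± 0.10). CEACAM6, a cell adhesion glycoprotein, had 1135 and 1131 CPM in STING-labelled cells, against 851 and 846 CPM in MAVS-labelled cells (0.42 ± 0.04). CEACAM5 and MUC20 changed by 0.43 and 2.04. MUC20 was not among the 12 largest rises, which took called genes averaging at least 1 CPM. Its reads may be shared with near-identical copies.

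The other lines split these 4 genes. For MUC5AC the MAVS-labelled libraries stood with SCR (11.7 and 13.6 CPM) and the STING-labelled ones above it (0.96 against SCR, adjusted p = 4.1e-09). For MUC5B the STING-labelled libraries stood with SCR (80.6 and 75.5 CPM) and the MAVS-labelled ones below it (-0.89 against SCR, adjusted p = 3.6e-05). MUC16 in SCR cells, at 126 and 132 CPM, lay between them. CEACAM6 was highest in SCR cells, at 1302 and 1373 CPM, and lowest in DKO cells, at 574 and 552 CPM. A difference between STING-labelled and MAVS-labelled cells therefore did not stand on the same side of SCR for each gene. Other protein coding genes that rose, chosen after their values were seen, were the atypical cadherin gene FAT1 at 1209 and 1223 CPM against 845 and 864 CPM (0.51 ± 0.04) and the serpin gene SERPINB3 at 29.4 and 32.7 CPM against 18.5 and 19.8 CPM (0.70 ± 0.09). The decoy death receptor gene TNFRSF10D, named from its list, had 55.9 and 55.1 CPM against 38.6 and 36.3 CPM (0.56 ± 0.08).

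Most of the larger rises were of non-coding transcripts. Long non-coding RNA genes counted 139 rises and 2 falls among 2574 tested (5.40% and 0.0777%, median 0.22), genes typed TEC, meaning still to be experimentally checked, 19 rises and 1 fall among 193 (median 0.52), and protein coding genes 240 rises and 382 falls among 14113 (1.70% and 2.71%, median -0.03). HELLPAR, a long non-coding RNA, had 57.9 and 63.6 CPM in STING-labelled cells, against 18.1 and 17.6 CPM in MAVS-labelled cells (1.77 ± 0.08, adjusted p = 1.2e-14), with 22.4 and 25.6 CPM in DKO and 28.2 and 29.3 CPM in SCR cells. RP11-282K24.3 had 2.87 and 2.58 CPM against 0.649 and 0.558 CPM (2.16 ± 0.27), and RP3-368A4.6 14.2 and 12.2 CPM against 4.04 and 3.65 CPM (1.77 ± 0.16). In all 3 the STING-labelled libraries lay above every DMSO library of the other lines. The bitter taste receptor gene TAS2R4 was a protein coding rise, at 3.41 and 3.26 CPM against 1.12 and 0.964 CPM (1.66 ± 0.25), and its relative TAS2R30 (1.80 ± 0.42) lost its call without STING DMSO replicate 1 (1.78), STING DMSO replicate 2 (1.83) or MAVS DMSO replicate 2 (1.41). The pseudogene RPS27AP16 lost its call without STING DMSO replicate 2 (0.63), MAVS DMSO replicate 1 (1.54) or MAVS DMSO replicate 2 (1.85), and AP000347.2 without STING DMSO replicate 1 (1.44) or MAVS DMSO replicate 2 (1.18). The other named rises, RP11-236P2.2, RP11-391L3.3, AC058791.1, DANT2 and LINC02595, ran from 1.68 to 1.92. Taste receptor, pseudogene and antisense values are uncertain, since near-identical copies and overlapping genes may share reads and the strand setting of the counting is not given in the sources used here.

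The STING-labelled DMSO libraries stood apart from the other 14 in this respect. Long non-coding RNA genes took 1.93% and 1.96% of their counts, against 1.45 to 1.6% in the other 14, and without MALAT1 and NEAT1 the shares were 1.32% and 1.34% against 1.04 to 1.22%. MALAT1, an abundant nuclear RNA named after its values were seen, had 5496 and 5616 CPM in STING-labelled cells, against 2995 and 3017 CPM in MAVS-labelled cells (0.89 ± 0.05, adjusted p = 5.9e-12), and it lay between 2995 and 4415 CPM in the other 14 libraries. NEAT1, another nuclear RNA, had 524 and 521 CPM against 366 and 367 CPM (0.51 ± 0.04). The share of non-coding RNA moved with the group in both of its libraries, so a property of these libraries and a property of the STING-labelled cells cannot be told apart. In a fit of protein coding genes alone, added after seeing the data, 553 genes were called, 304 higher and 249 lower, and 22 were at least 2-fold higher and 75 at least 2-fold lower. In that fit 53 interferon-stimulated genes fell.

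**Figure D3:**
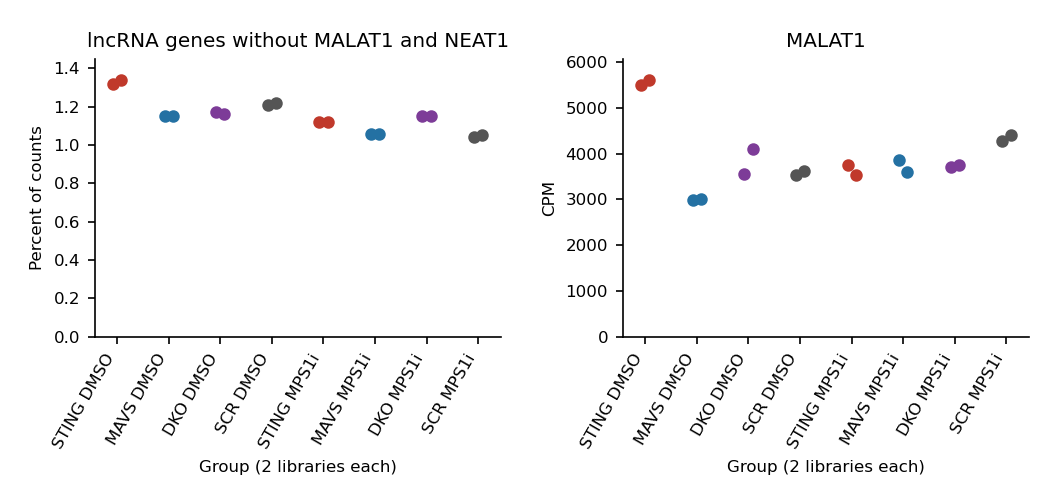
Share of counts in long non-coding RNA genes other than MALAT1 and NEAT1 (left, percent) and MALAT1 (right, CPM) in all 16 libraries, 1 point per library. The 2 STING DMSO libraries are the highest in both panels, at 1.32 and 1.34% and at 5496 and 5616 CPM.

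Genes on the long arm of chromosome 5 beyond STING1 were slightly lower together. Between STING1 and the end of the chromosome, 219 protein coding genes had a mean of at least 1 CPM. Their median log2 fold change was -0.16 under DMSO, with 190 of 219 below 0 (86.8%, against 60.7% of 12336 such genes in all), 21 called lower and 0 called higher. The 350 genes on the other side of STING1 had a median of -0.03, with 7 called each way. Of all 14113 protein coding genes tested, 2.71% were called lower and 1.7% higher. Of 303 windows of 10 Mb with at least 10 tested genes, the 5 lowest medians were the 5 windows from 140 to 190 Mb of chromosome 5, at -0.129 to -0.177. Against the mean of the SCR DMSO libraries, the 219 genes had medians of -0.11 and -0.12 in the STING-labelled libraries, 0.02 and 0.02 in the MAVS-labelled libraries and -0.11 and -0.12 in the DKO libraries.

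Named members of this stretch were the ribosome-associated scaffold gene RACK1 (-0.22 ± 0.05), the autophagy receptor gene SQSTM1 (-0.20 ± 0.04), the ribosomal protein gene RPS14 (-0.22 ± 0.05), the kinase gene CSNK1A1 (-0.23 ± 0.05) and the protocadherin gene PCDH1 (-0.84 ± 0.13). SQSTM1 had 2433 and 2361 CPM in STING-labelled cells, against 2768 and 2738 CPM in MAVS-labelled cells (adjusted p = 0.0026). Some of these calls were lost without a single library. Without STING DMSO replicate 2, RACK1 (-0.20), SQSTM1 (-0.17), RPS14 (-0.19) and CSNK1A1 (-0.20) did not pass, without MAVS DMSO replicate 2 RACK1 (-0.20), RPS14 (-0.16) and CSNK1A1 (-0.21) did not, and without MAVS DMSO replicate 1 SQSTM1 (-0.18) did not. Some list members described above, RPS14 and SQSTM1 among them, lie in this stretch. On chromosome 20 the 37 genes at lower coordinates than MAVS had a median of 0.06 under DMSO, with 15 below 0 (40.5%, against 60.7% of all such genes). After MPS1i their median was 0.15, with 6 below 0 (16.2%, against 51.1%). Against SCR under DMSO, MAVS-labelled cells stood at -0.11 there and the DKO libraries at -0.03 and -0.17. The 34 genes within 10 Mb on the other side of MAVS had medians of 0.07 under DMSO and 0.03 after MPS1i.

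**Figure D4:**
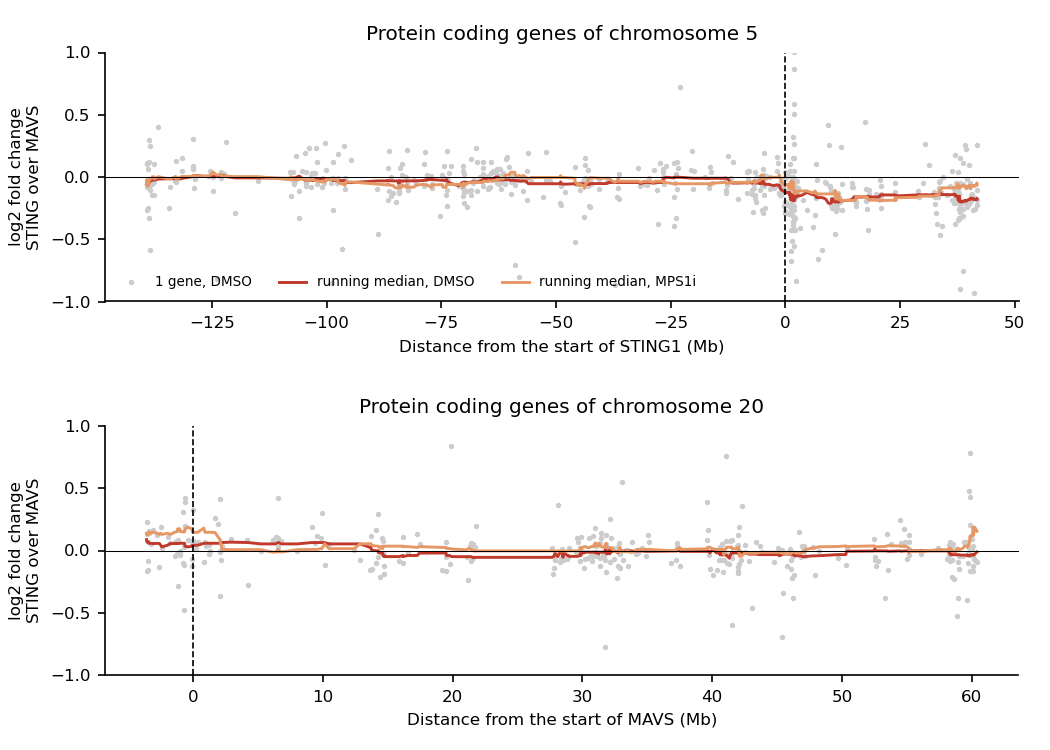
Log2 fold change of STING-labelled over MAVS-labelled cells for protein coding genes by distance from STING1 (top) and MAVS (bottom), in Mb, with grey points for genes under DMSO and lines for the running median of 31 genes under DMSO and MPS1i. Beyond STING1 both lines lie below 0, and 6 and 2 genes lie outside the axis of ±1.

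The same lines after MPS1i, in libraries independent of those above, gave 1926 genes called between STING-labelled and MAVS-labelled cells (10.7%), 1047 lower (5.83%) and 879 higher (4.90%). The number was 1176 without STING MPS1i replicate 1, 978 without STING MPS1i replicate 2, 1069 without MAVS MPS1i replicate 1 and 1116 without MAVS MPS1i replicate 2. Of the 386 genes lower under DMSO, 199 were also called lower after MPS1i, which is 51.6% of the DMSO list and 19% of the MPS1i list, and 4 were called higher. Of the 445 genes higher under DMSO, 83 were also called higher after MPS1i, 18.7% of the DMSO list and 9.44% of the MPS1i list, and 16 were called lower. Among protein coding genes the rises shared were 70 of 240 (29.2%, and 8.62% of the MPS1i list), with 13 called lower. The sign was the same after MPS1i for 86.5% of the falls and 55.1% of the rises (86.6% and 60.4% among protein coding genes). As a background, 51.1% of 12336 protein coding genes averaging 1 CPM or more lay below 0 after MPS1i. The median over all genes tested was -0.008, so both signs were about equally common. The 55.1% of the rises is near such an even split, and the 86.5% of the falls is well above it. On chromosome 5 beyond STING1 the median was -0.11 after MPS1i, with 36 genes called lower and 1 called higher.

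The interferon difference, as a log2 fold change, narrowed after MPS1i. Of the 54 interferon-stimulated genes 49 were lower (median -0.52), where 5.83% of all genes were. For 40 the change in the contrast itself passed as an interaction term, all positive and towards a smaller difference. A positive term passed for 1.96% of all genes. IFIT1 had 707 and 679 CPM in STING-labelled cells after MPS1i, against 1010.4 and 951 CPM in MAVS-labelled cells (-0.50 ± 0.08), which differed from the DMSO contrast by 2.61 (adjusted p = 1.3e-07). In DKO cells after MPS1i it stood at 6.74 and 7.38 CPM. CCL5 kept most of its log2 fold change, at 16.3 and 16.4 CPM in STING-labelled cells, against 234 and 238 CPM in MAVS-labelled cells (-3.85 ± 0.07). In CPM, levels of both genes rose after MPS1i in both lines, and the lines stood further apart than under DMSO. Over all genes 700 (3.90%) had an interaction that passed, 352 positive (1.96%) and 348 negative (1.94%), and between 369 and 517 did without any 1 library.

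For some class I genes and many inflammatory genes the gap was larger after MPS1i. Of the 20 tested class I genes 19 were lower (median -0.52), with HLA-B at 44.1 and 42.3 CPM in STING-labelled cells, against 131 and 134 CPM in MAVS-labelled cells (-1.62 ± 0.06, interaction -0.59, adjusted p = 0.0011). Of 30 NF-kB genes 18 were lower and 0 higher after MPS1i, where 5.83% of all genes were lower. An interaction was called for 13 of the 30, against 3.90% of all genes. IL6 had 42.5 and 42.7 CPM in STING-labelled cells after MPS1i, against 95.6 and 95.3 CPM in MAVS-labelled cells (-1.16 ± 0.06, interaction adjusted p = 3.9e-08). MUC16 changed direction, with 106 and 111 CPM in STING-labelled cells after MPS1i, against 144 and 156 CPM in MAVS-labelled cells (-0.46 ± 0.05, interaction -1.70, adjusted p = 2e-14). HELLPAR had 24.3 and 22.7 CPM against 23.5 and 23.0 CPM after MPS1i (0.01 ± 0.08), and long non-coding genes took 1.52% and 1.5% of counts in the STING-labelled libraries there. In the MAVS-labelled MPS1i libraries that share was 1.47% and 1.45%. Of 2574 long non-coding genes 53 were higher and 26 lower after MPS1i (median 0.04), where 4.90% and 5.83% of all genes were. The non-coding rise was thus much smaller in the MPS1i libraries of these lines than under DMSO.

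**Figure D5:**
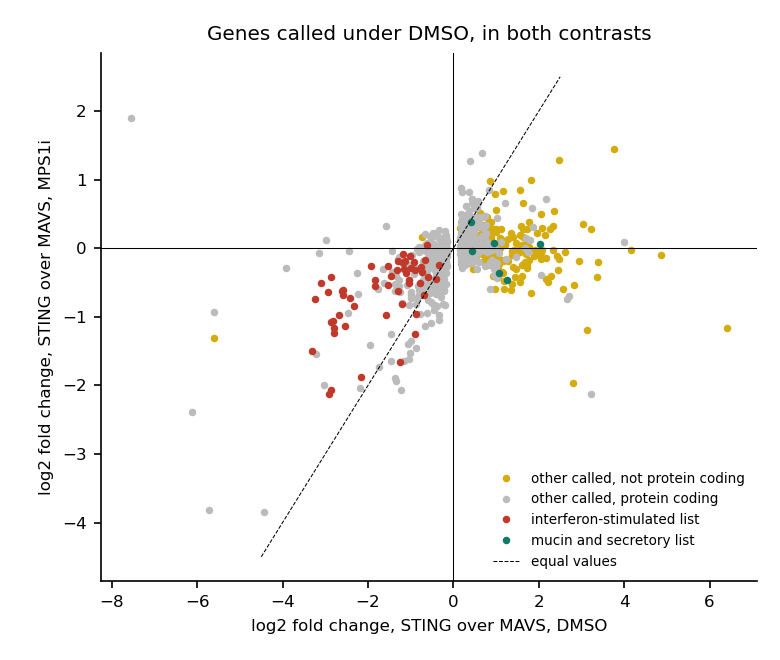
Log2 fold change of STING-labelled over MAVS-labelled cells under DMSO (x axis) and after MPS1i (y axis) for the 831 genes called under DMSO, coloured by gene list or gene type, with a dashed line at equal values. Interferon-stimulated genes lie left of 0 and mostly above the dashed line, and of the genes that are not protein coding 205 lie right of 0 and 4 left of it.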

How the data were processed

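RNA sequencing was analysed in 16 NCI-H1944 libraries, 4 of which enter the main comparison. The deposited table gives unnormalized read counts of each gene in each library, as the authors deposited them. Per the submitters' processing notes, Trim Galore, cutadapt, Trimmomatic, STAR and featureCounts were used on GRCh38/hg38. Versions, strand setting and the handling of reads that map to several places are not given in the sources used here. A stranded kit after poly(A) selection is given per the labels' protocols. The table holds 60612 genes, 44 of them second copies of the Y pseudoautosomal region, and no mitochondrial gene.

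Genes were kept by filterByExpr (minimum count 10, minimum total 15), which left 17950, 14113 of them protein coding. edgeR 4.0.16 in R 4.3.3 fitted 1 mean per group of 2 libraries (8 groups, 8 residual degrees of freedom) with TMM scaling and tested contrasts by the robust two-sided quasi-likelihood F-test, adjusted by Benjamini-Hochberg, with calls made below an adjusted p of 0.05. CPM use TMM-scaled totals. Standard errors were derived from the log2 fold change and its F statistic. The procedure was tested on simulated counts. Residuals of same-numbered STING and MAVS DMSO libraries correlated at 0.027 (28 pairs of groups, -0.047 to 0.088), so replicates were not paired.

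The comparison, the 36 gene lists and the genes named were chosen with earlier results of these data known. Named genes were 14 fixed genes, the 12 largest rises and 12 largest falls with a mean of at least 1 CPM over the 4 libraries, up to 4 called members of each list by adjusted p and up to 4 called against its majority, the 2 most abundant members of a list with no call, 6 genes by interaction and 3 per chromosome window. Others are said to be chosen after their values were seen. RIGI is listed as DDX58. Values of some genes are not reported here. Alternatives were RLE scaling, other filters, DESeq2 1.42.0, thinned libraries, fits of the compared groups only, a replicate block, protein coding genes only and leaving out each library. Counts give a floor of 3 per library for a gene at 0, which covers counting error only.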

Additional observations from a re-analysis of the deposited data

Results flagged for a closer look

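The difference between STING-labelled and MAVS-labelled cells was itself different after MPS1i and under DMSO for 55 of the genes named by rule and reported here, by edgeR's interaction term at an adjusted p under 0.05. In all 129 genes were named by rule, and 3.90% of all genes tested passed this term. The rule took 6 genes for their small adjusted p in this term, so their passing was fixed by the choice. Each value in brackets is the log2 fold change after MPS1i minus that under DMSO. A positive value means that STING-labelled cells stood higher relative to MAVS-labelled cells after MPS1i than under DMSO. Genes named as the largest rises or falls, as called members of a list or from a chromosome window were picked by their DMSO contrast. That contrast is subtracted here. The choice alone pushes their values towards the opposite sign, negative for rises and positive for falls. How much of a value it makes up was not tested.

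Interferon-stimulated genes had positive values, among them IFIT1 (2.61), HERC5 (2.50), MX1 (2.46), IFI44L (2.29) and OAS2 (1.99). Others were IFI44 (1.90), OASL (1.81), XAF1 (1.79), IFIT2 (1.77), IFI27 (1.64), DDX60 (1.49) and OAS3 (0.99). Sensors and signalling genes were positive as well, with IRF7 (1.35), DDX58 (1.17), IFIH1 (1.12), IRF9 (0.86) and SAMHD1 (0.81), and with TRIM25 (0.71), STAT2 (0.52) and IFI16 (0.48). The chemokine gene was CCL5 (0.58).

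Class I and inflammatory genes had negative values, namely HLA-B (-0.59), B2M (-0.47), CXCL5 (-0.49), SOD2 (-0.42) and PTGS2 (-0.39) and the apoptosis regulator CFLAR (-0.39). Mucins were negative, with MUC16 (-1.70), MUC5AC (-1.42) and MUC5B (-0.88). Non-coding rises under DMSO were negative, with RP11-282K24.3 (-2.61), RP11-391L3.3 (-2.01), AC058791.1 (-2.0), RP11-236P2.2 (-1.95) and RP3-368A4.6 (-1.94). The same held for LINC02595 (-1.88), HELLPAR (-1.76), DANT2 (-1.75), CTB-89H12.4 (-0.70) and MEG3 (-0.51) and for the taste receptor gene TAS2R4 (-1.66).

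In metabolism and growth the positive values were ACO1 (0.89), CBS (0.73), BOP1 (0.50), ZMAT3 (0.46) and PHGDH (0.45), and PSAT1 (0.36), RACK1 (0.30), RPL19 (0.27), RPL10 (0.26) and MYC (0.24). The negative ones were HSD17B7 (-0.51), WARS1 (-0.46), HMGCS1 (-0.36) and FBXO22 (-0.36). The cause of these differences was not tested.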

How the results depend on the processing

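None of the 104 named genes with a call changed direction under the alternatives run for the main comparison. With protein coding genes only, 553 genes were called in place of 831 and 97 in place of 206 at least 2-fold. DESeq2 called 628 genes, which held 71.8% of the 831, and 130 at least 2-fold (61 higher, 69 lower). With only the groups compared 1089 genes were called, which held 90.7% of the 831. The interaction gave 1141 genes in place of 700 with only the groups compared. Leaving out 1 library, where the lone sample is assumed to vary like the other groups, gave 394 to 458 calls in the main comparison, 133 to 144 at least 2-fold, 978 to 1176 after MPS1i, 369 to 517 for the interaction, 897 to 1375 for STING-labelled against SCR, 339 to 744 for MAVS-labelled against SCR, 9 to 12 class I falls, 50 to 52 interferon-stimulated falls and chromosome 5 medians of -0.16 to -0.14. That median was -0.15 with the 1 CPM filter and with thinned libraries, -0.14 with only the groups compared and -0.13 with protein coding genes only. Fewer samples or genes enter these fits, and the cause of the other shifts was not tested. With 150 bases before the start, 0.649% of all promoters held the response element. The replicate block gave 832 calls in the main comparison, so pairing by number changed little. Of these 104 genes, 61 kept their call in each alternative that tested them (12, or 11 for genes that are not protein coding) and 43 lost it in at least 1, while 3 of 25 without a call gained one. Calls of small log2 size are limited by 2 libraries per group, and genes near 0 CPM by depth.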

Other observations

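ACO1, an iron-regulated aconitase, and DDX58 are neighbours on chromosome 9 in the deposited table, at 32384603 to 32454769 and 32455302 to 32526208 (GRCh38), and groups high in one were mostly low in the other, except MAVS-labelled and SCR cells under DMSO, where both genes were higher in MAVS-labelled cells. Under DMSO, ACO1 had 132 and 130 CPM in STING-labelled, 100.4 and 101 CPM in MAVS-labelled, 147 and 142 CPM in DKO and 94.2 and 90.4 CPM in SCR cells. DDX58 had 43.5 and 43.4 CPM in STING-labelled, 148 and 146 CPM in MAVS-labelled, 32.9 and 37.8 CPM in DKO and 112 and 125 CPM in SCR cells. After MPS1i, ACO1 had 57.6 and 60.1 CPM in STING-labelled, 25.7 and 23.2 CPM in MAVS-labelled, 144 and 135 CPM in DKO and 14 and 14.8 CPM in SCR cells. DDX58 then had 488 and 471 CPM in STING-labelled, 732 and 712 CPM in MAVS-labelled, 42.4 and 37.8 CPM in DKO and 1223 and 1330.2 CPM in SCR cells. These are values of 2 genes, and the part of their position in this was not tested.

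Some genes outside the interferon lists, named after their values were seen, also differed in the same direction in both treatments. CEACAM1, a cell adhesion gene, had 1.07 and 1.8 CPM in STING-labelled cells, against 5.05 and 4.31 CPM in MAVS-labelled cells under DMSO (-1.75 ± 0.20), and -1.74 after MPS1i. NT5E, the ectonucleotidase CD73, changed by -0.56 ± 0.06 under DMSO and -0.66 after MPS1i. LY6E, an interferon-induced membrane protein outside the lists used here, changed by -0.99 ± 0.07 and -0.73, and SLFN5 by -1.10 ± 0.06 and -0.54.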
